A study of Mus musculus with 6 samples.

Results

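The Bergmann glia and astrocyte genes described here are 29 genes chosen as markers of cerebellar astroglia, read from probes annotated to 1 gene only. All 29 had such a probe among the 18193 genes represented on the arrays, and where a gene had several, the one brightest on average across the 6 arrays stands for it. The study measured total RNA from brain tissue, cerebellum by its title, on 1 Affymetrix expression array per mouse, in 3 Gb5-deficient mice (Gb5 knockout, arrays 4 to 6) and 3 wild-type mice (arrays 1 to 3). The labels describe littermates matched for age and sex that were housed in a pathogen-free facility with food and water ad libitum; strain, age and the construction of the knockout allele were not given in the sources used here. Gb5, encoded by Gnb5, is the G protein beta subunit that binds RGS proteins of the R7 family in neurons.

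Bergmann glia are the radial astrocytes of the cerebellar cortex. Their cell bodies lie around the Purkinje cells, and their fibres cross the molecular layer and wrap the synapses that Purkinje cells receive. Together with the velate astrocytes of the granular layer and the fibrous astrocytes of the white matter they clear glutamate and potassium, move water at the vessel wall and are coupled to each other by gap junctions; injury raises their intermediate filaments, a state called reactive astrogliosis. In RNA from whole tissue, fewer cells of a type and less RNA per cell cannot be told apart.

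Signals are the deposited log2 values, so differences are log2 fold changes of signal. The array medians lay between 6.48 and 6.57, and Pearson's r over all probes was 0.991 to 0.997 for the 15 pairs of arrays. Gnb5 read 3.65, 3.36 and 2.96 on the knockout arrays, against 8.80, 8.51 and 8.70 on the wild-type arrays. Knockout array 6 stood apart: its Y-linked Eif2s3y probe read 11.80, against 3.19 and 3.43 on the other knockout arrays and 3.27 to 3.39 on the wild-type arrays, which goes against the labelled matching for sex, and its Gapdh control probes differed by 1.58 between the 3′ and the 5′ end, against 1.07 and 1.14 on the other knockout arrays and 1.03 to 1.04 on the wild-type arrays. The 29 genes, their other probes and the gene lists were also read without that array (the probes and lists by a choice made after the data were seen), and values that moved by over 1.5 times are given below for the genes and probes named with a difference over 0.10 in size.

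None of the 29 Bergmann glia and astrocyte genes passed the test of knockout against wild type. Of 14067 genes tested across the array, 5 passed (0.0355%; limma, Benjamini-Hochberg adjusted p of 0.05), and the lowest adjusted p among the 29 was 0.574, for Ptprz1. Differences ran from -0.26 for Gjb6, a gap junction protein, to 0.28 for Npy, neuropeptide Y. In 24 of the 29 genes the 95% interval of the difference lay wholly within 0.50 of 0 on the log2 scale. Over all 29 the interval ends reached -0.61 for Gjb6 and 0.71 for Npy, which would be a 1.63-fold change in signal.

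By sign, 11 of the 29 genes had higher and 18 had lower values in knockout, with a median difference of -0.03; over all genes tested 56.7% had higher values and the median was 0.03. The absolute difference was under 0.10 in 12 genes and over 0.20 in 4 (Npy, Gjb6, Slc7a10 and Aldh1l1), and its median was 0.12, against 0.11 over all genes tested. The median SE was 0.08 among the 29 and 0.12 over all genes tested. An unadjusted limma p under 0.05 was found for 1 of the 29, Ptprz1, and for 8.57% of all genes tested. The 3 knockout arrays lay wholly on one side of the 3 wild-type arrays in 5 of the 29 genes, and in 14.9% of all genes tested. Of these 5 genes, 4 (S100b, Ntsr2, Ptprz1 and Kcnj10) were lower in knockout, where the share of all genes tested was 4.82%, and 1 (Acsbg1) was higher, where it was 10.1%.

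**Figure D1:**
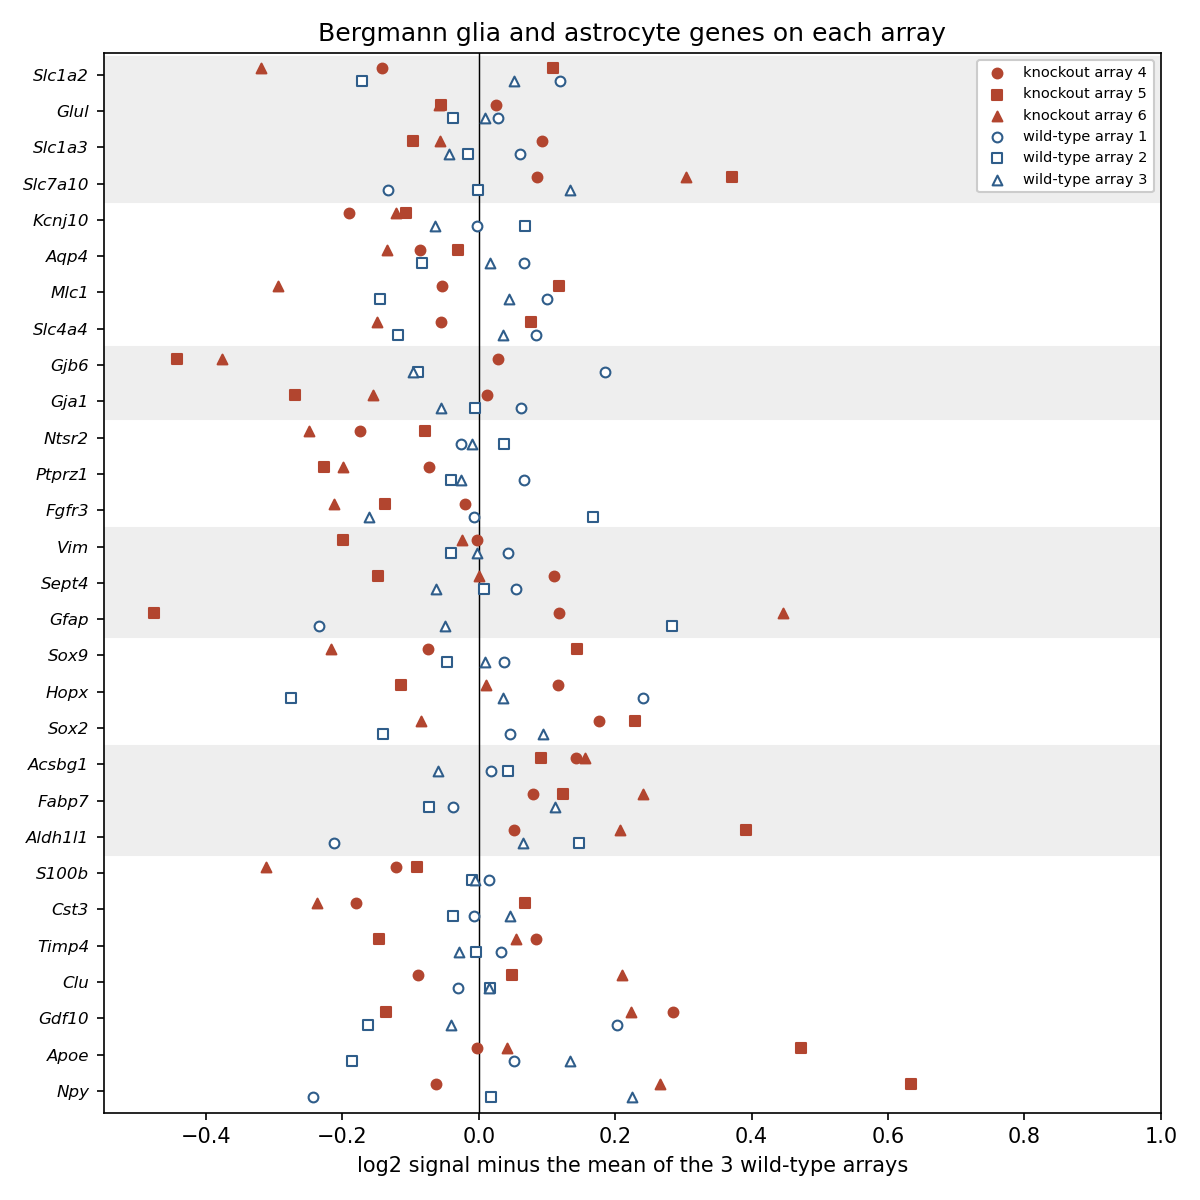
Signal of each of the 29 genes on every array, as log2 signal minus the mean of the 3 wild-type arrays; filled symbols are the knockout arrays and open symbols the wild-type arrays, and shading separates groups of genes by role. The symbols of both genotypes overlap in 24 genes; the knockout symbols lie wholly to the left for Kcnj10, Ntsr2, Ptprz1 and S100b and wholly to the right for Acsbg1.

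Sequence around the start of genes whose arrays did not overlap is shown, although none of these genes passed. SOX-type words were searched because SOX9 and SOX2, transcription factors of astroglia, are themselves among the 29. Control of these genes by SOX factors was not tested. The RefSeq table (build GRCm38.p6) held a window from 250 bases before to 50 bases after the start for 26 of the 29 genes, and the first window listed was used for each gene. Each window was searched on both strands for the SOX-type words ACAAAG and ACAATG, the nuclear factor I half-site TTGGCA and the TATA word TATAAA; none of these words contains another. Of the 4 non-overlapping genes with lower values, Kcnj10 and S100b are printed, the 2 whose windows held a word. Acsbg1, with higher values, is printed as well. Windows run 5′ to 3′ on the gene's strand, with the words found in capitals.
Kcnj10, chr1:172340960-172341259, plus strand: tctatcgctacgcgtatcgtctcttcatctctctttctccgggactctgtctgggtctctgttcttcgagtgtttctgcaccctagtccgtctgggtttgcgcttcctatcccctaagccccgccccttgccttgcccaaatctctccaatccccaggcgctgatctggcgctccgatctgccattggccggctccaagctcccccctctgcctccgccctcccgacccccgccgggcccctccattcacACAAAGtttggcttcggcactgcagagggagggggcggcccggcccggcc
S100b, chr10:76253586-76253885, plus strand: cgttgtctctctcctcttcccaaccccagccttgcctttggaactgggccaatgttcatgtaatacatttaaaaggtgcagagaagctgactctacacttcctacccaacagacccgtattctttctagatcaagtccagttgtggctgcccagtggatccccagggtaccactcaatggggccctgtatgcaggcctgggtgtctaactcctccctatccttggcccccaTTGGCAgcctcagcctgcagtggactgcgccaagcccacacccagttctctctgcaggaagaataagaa
Acsbg1, chr9:54661836-54662135, minus strand: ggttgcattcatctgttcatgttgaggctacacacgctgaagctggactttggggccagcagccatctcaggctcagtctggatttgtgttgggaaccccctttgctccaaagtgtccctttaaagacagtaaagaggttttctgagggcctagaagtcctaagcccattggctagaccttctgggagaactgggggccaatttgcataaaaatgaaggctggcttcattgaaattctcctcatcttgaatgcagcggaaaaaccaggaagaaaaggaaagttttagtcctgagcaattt

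The Kcnj10 window held 1 ACAAAG, the S100b window held 1 TTGGCA, and neither the Acsbg1 window nor those of Ntsr2 and Ptprz1 held any of the 4 words. ACAAAG was present in 3 of the 26 windows, against 18.7% of the first windows of all 27025 genes in the RefSeq table and 13.5% of those of the genes tested. The other words were present in 1 (ACAATG), 1 (TTGGCA) and 2 (TATAAA) of the 26, against 12.8%, 14.4% and 14.2% of all genes and 7.29%, 11.7% and 7.50% of the genes tested. Base composition differed among the 3 printed windows, with a G and C content of 63.7% for Kcnj10, 53.7% for S100b and 47.0% for Acsbg1; the median was 57.5% over the 26 windows and 60.7% over those of the genes tested. A word match is a description of these letters and not a binding site.

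Transporters and enzymes of glutamate handling showed no difference that passed. Slc1a3, the glutamate and aspartate transporter that is the main glutamate carrier of Bergmann glia, read 13.24, 13.05 and 13.09 on the knockout arrays and 13.21, 13.13 and 13.11 on the wild-type arrays. The difference was -0.02 (SE 0.06), with a 95% interval from -0.15 to 0.11. The arrays of both genotypes overlapped, and knockout array 4 was the highest of all 6. Glul, glutamine synthetase, which turns the glutamate taken up into glutamine, read 13.12, 13.04 and 13.04 in knockout, against 13.13, 13.06 and 13.11 in wild type. Its difference of -0.03 had the smallest SE of the 29 genes, 0.04, and an interval from -0.13 to 0.07. Slc1a2, the second astroglial glutamate transporter, read 10.62, 10.87 and 10.45 in knockout, against 10.88, 10.60 and 10.82 in wild type. Those arrays overlapped, with a difference of -0.12 and an interval from -0.40 to 0.17. The Slc1a2 difference was -0.017 without knockout array 6 and -0.23 without knockout array 5. Leaving out wild-type array 1 gave -0.058, and leaving out wild-type array 2 gave -0.20. Slc7a10, an exchanger of small neutral amino acids such as serine and glycine, averaged 9.74 ± 0.15 in knockout and 9.49 ± 0.13 in wild type (log2, SD, n = 3 each). Its difference of 0.25 (SE 0.12; limma adjusted p = 0.592) was the second largest of the higher values, and 2 of the 3 knockout arrays (9.86 and 9.79) lay above every wild-type array (9.35, 9.49 and 9.62), with knockout array 4 at 9.57.

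By the probe used for each gene, all 4 genes of potassium, water and ion handling had lower values in knockout, and none passed. Kcnj10, the inward rectifier channel Kir4.1 through which astroglia take up potassium, read 11.56, 11.64 and 11.63 on the knockout arrays and 11.74, 11.82 and 11.68 on the wild-type arrays. Every knockout array lay below every wild-type array, by a difference of -0.14 (SE 0.07; 95% interval -0.29 to 0.01; limma adjusted p = 0.596). Aqp4, the water channel of perivascular endfeet, read 13.09, 13.15 and 13.04 in knockout, against 13.24, 13.09 and 13.19 in wild type, a difference of -0.08 with an interval from -0.20 to 0.04. Its arrays overlapped only through wild-type array 2. Mlc1, an endfoot membrane protein, and Slc4a4, a sodium bicarbonate cotransporter, had differences of -0.08 and -0.04, with intervals from -0.34 to 0.19 and from -0.21 to 0.13. Without knockout array 6 their signs turned, to 0.03 and 0.01.

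Both gap junction genes had lower values in knockout. Gja1 encodes connexin Cx43 and Gjb6 connexin Cx30, which together couple astrocytes. Gja1 read 13.26, 12.98 and 13.09 in knockout, against 13.31, 13.24 and 13.19 in wild type, a difference of -0.14 (SE 0.07; 95% interval -0.30 to 0.02; limma adjusted p = 0.609). Gjb6 read 7.35, 6.88 and 6.95 in knockout, against 7.51, 7.23 and 7.23 in wild type, a difference of -0.26 (SE 0.15; limma adjusted p = 0.617). In both genes knockout arrays 5 and 6 lay below every wild-type array while knockout array 4 lay within the wild-type range. Without knockout array 4 the differences were -0.21 for Gja1 and -0.41 for Gjb6 (limma adjusted p = 0.239 and 0.268), and without knockout array 5 they were -0.072 for Gja1 and -0.17 for Gjb6 (limma adjusted p = 0.730 and 0.753). Without wild-type array 1 the Gjb6 difference was also -0.17.

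The 3 surface receptor genes also had lower values. In 2 of them, already counted above, the arrays did not overlap, where 4.82% of all genes tested were wholly lower in knockout. Ntsr2, a neurotensin receptor of astrocytes, read 10.78, 10.87 and 10.70 in knockout, against 10.92, 10.99 and 10.94 in wild type, a difference of -0.17 (SE 0.08; limma adjusted p = 0.596). Ptprz1, a receptor tyrosine phosphatase for pleiotrophin that oligodendrocyte precursors also make, read 11.65, 11.50 and 11.53 in knockout, against 11.79, 11.68 and 11.70 in wild type. With a difference of -0.17 (SE 0.07), Ptprz1 was the one gene of the 29 whose 95% interval, from -0.33 to -0.01, left out 0, before adjustment for the 14067 genes tested. Fgfr3, a fibroblast growth factor receptor of astrocytes, read 9.26, 9.14 and 9.07 in knockout, against 9.27, 9.45 and 9.12 in wild type, with overlapping arrays and a difference of -0.12. The Fgfr3 difference was -0.079 without knockout array 6, -0.040 without wild-type array 2 and -0.20 without wild-type array 3.

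The cytoskeletal genes, among them the filament genes used as signs of astrogliosis, gave no difference that passed. Gfap, the astrocyte intermediate filament, read 11.78, 11.19 and 12.11 on the knockout arrays, against 11.43, 11.95 and 11.61 on the wild-type arrays. The knockout arrays held both the highest and the lowest signal of the 6, and the difference of 0.03 had the largest SE of the 29 genes, 0.22, and an interval from -0.47 to 0.53. Without knockout array 6 the difference was -0.18, and without knockout array 5 it was 0.28. Vim, vimentin, which Bergmann glia keep into adulthood, averaged 12.85 ± 0.11 in knockout and 12.92 ± 0.04 in wild type (SD, n = 3 each), a difference of -0.08. Sept4, a septin of Bergmann glial processes, averaged 12.49 ± 0.13 in knockout and 12.51 ± 0.06 in wild type, a difference of -0.01 with an interval from -0.18 to 0.15.

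Transcription regulators gave no difference beyond their spread. Sox9, a factor of astroglial identity, averaged 9.45 ± 0.18 in knockout and 9.50 ± 0.04 in wild type, and Sox2, which Bergmann glia keep after development, averaged 9.54 ± 0.17 in knockout and 9.43 ± 0.12 in wild type (SD, n = 3 each). The Sox2 difference of 0.11 was 0.20 without knockout array 6, 0.046 without knockout array 5 and 0.037 when wild-type array 2 was left out. Hopx, an atypical homeodomain protein of the Bergmann glia lineage, read 11.08, 10.85 and 10.97 in knockout, against 11.20, 10.68 and 11.00 in wild type. All 3 knockout values of Hopx lay inside the wild-type range, whose ends were wild-type arrays 1 and 2, and the difference was 0.0042.

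The 3 genes of lipid and folate metabolism had higher values in knockout, and none passed. Acsbg1, an acyl-CoA synthetase, read 10.21, 10.16 and 10.23 in knockout, against 10.09, 10.11 and 10.01 in wild type, a difference of 0.13 (SE 0.08; 95% interval -0.06 to 0.32; limma adjusted p = 0.626). Its arrays did not overlap. Fabp7, the brain lipid-binding protein of radial glia and Bergmann glia, read 12.10, 12.14 and 12.26 in knockout, against 11.98, 11.95 and 12.13 in wild type, a difference of 0.15 (SE 0.07; limma adjusted p = 0.603). Aldh1l1, the folate enzyme commonly used to mark astrocytes, read 11.08, 11.42 and 11.24 in knockout, against 10.82, 11.18 and 11.10 in wild type, a difference of 0.22 (SE 0.12; limma adjusted p = 0.612). The Aldh1l1 difference was 0.13 without knockout array 5 and 0.11 when wild-type array 1 was left out. In Fabp7 and Aldh1l1, 2 of the 3 knockout arrays lay above every wild-type array. For these 3 genes together, signal summed on the linear scale was 7747 to 8525 on the knockout arrays and 6942 to 7712 on the wild-type arrays. The sums of the surface receptor genes lay apart in the other direction, at 5147 to 5583 in knockout and 5844 to 6104 in wild type. Sums of the other roles overlapped between the genotypes.

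The secreted proteins went in both directions. S100b, a calcium-binding protein released by astrocytes and also made in the oligodendrocyte lineage, read 11.03, 11.06 and 10.84 in knockout, against 11.16, 11.14 and 11.14 in wild type, a difference of -0.17 (SE 0.08; limma adjusted p = 0.596). The wild-type SD of S100b was 0.01 and its knockout SD 0.12, with knockout array 6 the lowest, and without that array the difference was -0.11. Gdf10, a growth factor of the BMP family whose cerebellar expression marks Bergmann glia, read 12.08, 11.66 and 12.01 in knockout, against 11.99, 11.63 and 11.75 in wild type. Its arrays overlapped, with a difference of 0.12 (SE 0.13) that was 0.25 without knockout array 5, 0.043 without knockout array 4 and 0.074 without knockout array 6. Leaving out wild-type array 1 gave 0.23, and leaving out wild-type array 2 gave 0.043. Npy, neuropeptide Y, averaged 9.01 ± 0.35 in knockout and 8.73 ± 0.23 in wild type (SD, n = 3 each), and its difference of 0.28 (SE 0.19; limma adjusted p = 0.638) was 0.10 without knockout array 5, where it read 9.37, 0.45 without knockout array 4 and 0.16 when wild-type array 1 was left out. Apoe, the lipid carrier of brain lipoproteins, read 9.72, 10.19 and 9.76 in knockout, against 9.77, 9.53 and 9.85 in wild type; the difference of 0.17 was 0.020 without knockout array 5, 0.26 without knockout array 4 and 0.078 when wild-type array 2 was left out. Knockout array 5 was the highest of the 6 arrays for both Npy and Apoe. Cst3, the protease inhibitor cystatin C (-0.12), Clu, the lipoprotein clusterin (0.06), and Timp4, a metalloproteinase inhibitor (-0.0025), had overlapping arrays and intervals within 0.30 of 0. The Cst3 difference was -0.056 without knockout array 6 and -0.21 without knockout array 5.

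**Figure D2:**
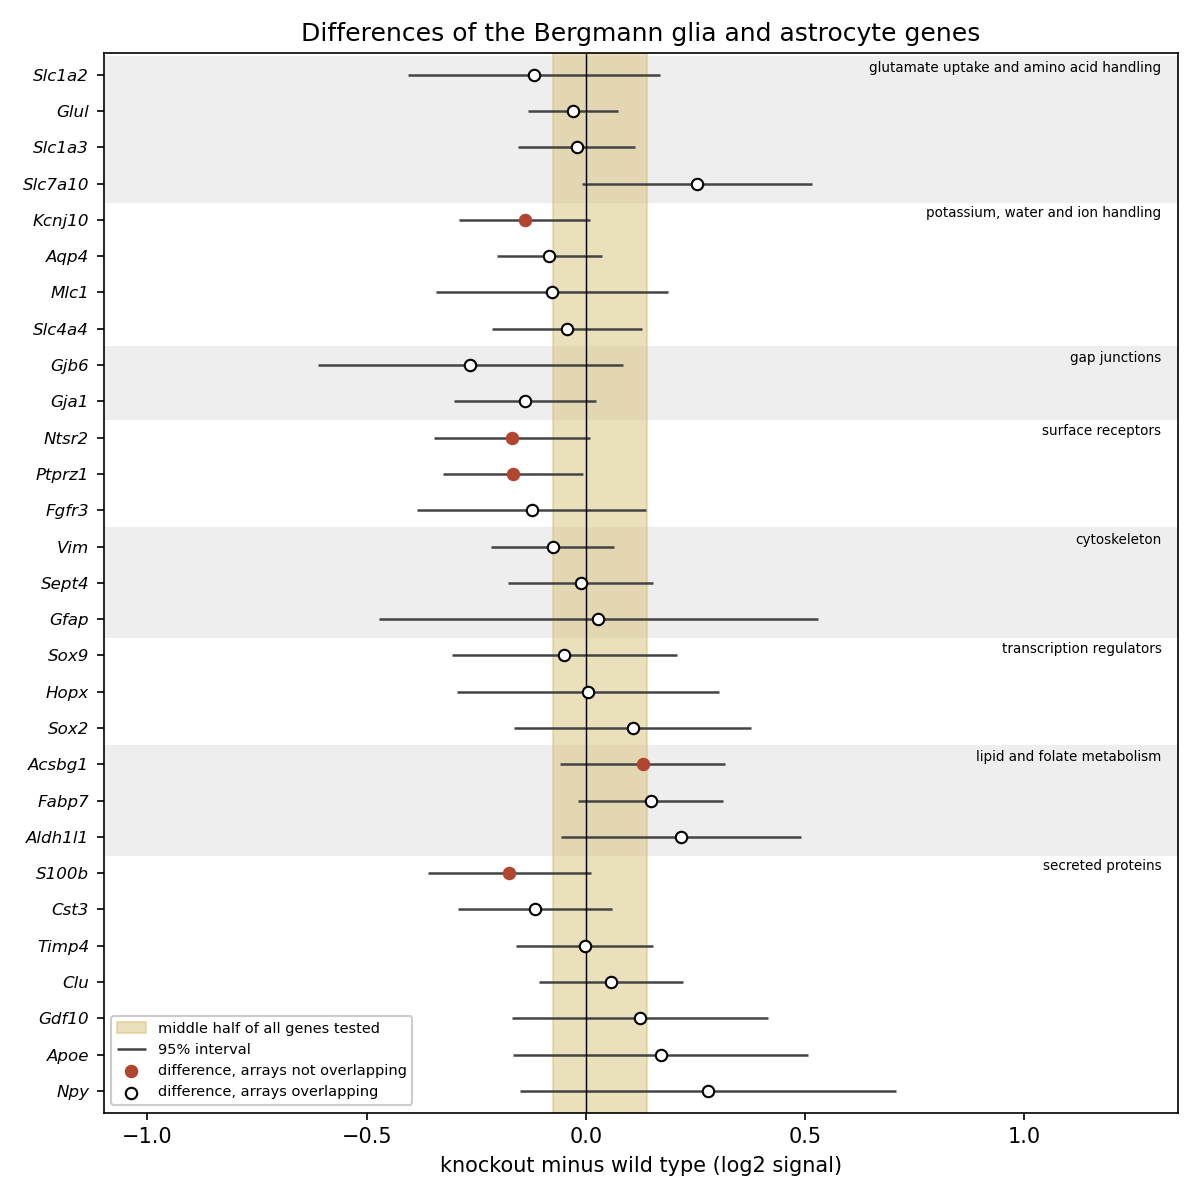
Difference of knockout minus wild type in log2 signal for the 29 genes by role, with 95% intervals from the limma fit; filled points are genes whose arrays did not overlap, and the band spans the middle 50% of all 14067 genes tested, from -0.08 to 0.14. Every interval except that of Ptprz1 crosses 0, and no gene passed after adjustment.

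Several genes were measured by more than 1 probe on the same arrays. Where in the transcripts these probes lie, and whether they share sequence, was not analysed. The 29 genes had 67 single-gene probes, 38 of them besides the one used, in 17 genes. No probe of the 29 genes passed when every probe was tested on its own, where 10 of 45037 probes passed (0.0222%). Of 33 other probes with a mean above the filter value of 4.70, 18 had the sign of the probe used and 15 the opposite sign. In 3 of the 33 the arrays did not overlap, against 14.9% of all genes tested, each read by its brightest probe. For Gja1, 4 of the 5 other probes read between -0.19 and -0.09, near the -0.14 of the probe used, and one with a mean of 4.98 read 0.09. For Aqp4 both other probes were lower as well, at -0.20 and -0.24, the dimmer of them without overlap. The second S100b probe had a difference of -0.10 with overlapping arrays. The other Gfap probes, with means of 10.86 and 10.67, had differences of -0.02 (SE 0.09) and 0.13 (SE 0.15), both with overlapping arrays. Without knockout array 6 these Gfap differences were -0.094 and -0.050. The other Slc1a2 probes above the filter value had differences of -0.34, 0.02 and 0.20, all with overlapping arrays; without knockout array 6 these were -0.076, 0.069 and 0.28. For Ptprz1 the other probes had differences of -0.18 and 0.10, and for Aldh1l1 the other probe, with a mean of 4.71 just above the filter value, had 0.04. The other Slc4a4 probes above the filter value had differences of 0.11, 0.06 and -0.25, all with overlapping arrays. Without knockout array 6 these Slc4a4 differences were 0.063, 0.0076 and -0.40.

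Over all 6 arrays the probes of Slc1a2 spread from -0.34 to 0.20 and those of Slc1a3 from -0.15 to 0.41. The brightest Slc1a3 probe gave -0.02, and those with means of 9.31 and 8.98 gave -0.15 and -0.12. A probe with a mean of 7.77 read 7.77, 8.15 and 7.90 on the knockout arrays and 7.47, 7.65 and 7.65 on the wild-type arrays, a difference of 0.35 (SE 0.13; limma adjusted p = 0.637 over every probe). Another, with a mean of 6.79, read 6.71, 6.98 and 7.28 in knockout, against 6.48, 6.67 and 6.61 in wild type, a difference of 0.41 (SE 0.16; limma adjusted p = 0.644 over every probe). The remaining probe, with a mean of 7.60, gave 0.15 with overlapping arrays. In the probes that gave 0.35 and 0.41 every knockout array lay above every wild-type array, opposite in sign to the brightest probe. Without knockout array 6 these differences were 0.37 and 0.26, and those of the probes that gave -0.15 and -0.12 were 0.033 and -0.034. Which part of the Slc1a3 transcript each probe reads was not analysed here.

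**Figure D3:**
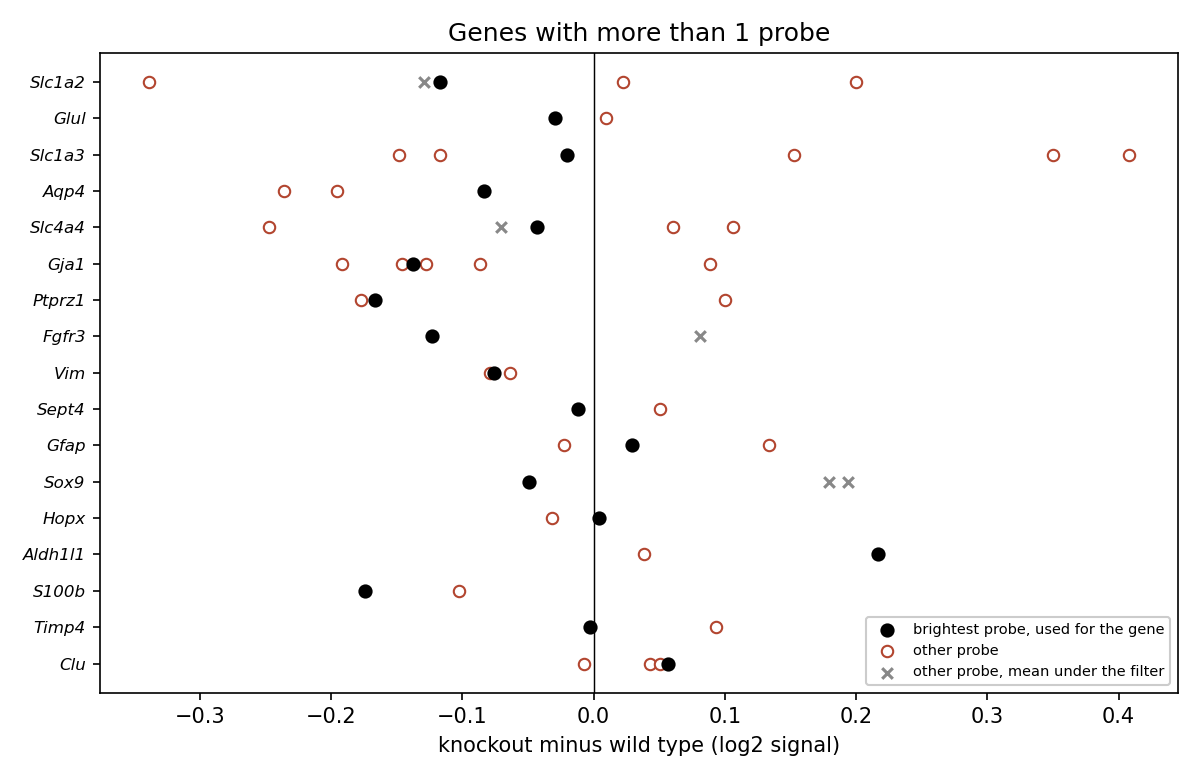
Difference of knockout minus wild type in log2 signal for every single-gene probe of the 17 genes with more than 1; the filled point is the brightest probe, open points are other probes and crosses are probes with a mean under the filter value. Probes of Vim and Clu lie close together, while those of Slc1a3 spread from -0.15 to 0.41 and those of Slc1a2 from -0.34 to 0.20.

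Spread within a genotype was wider in knockout for most of the 29 genes. The knockout SD exceeded the wild-type SD in 22 of 29 genes, against 61.6% of all genes tested, and the median SD was 0.13 in knockout and 0.08 in wild type, against 0.14 and 0.11 over all genes tested. Without knockout array 6 the knockout SD was the larger in 20 of 29 genes, against 55.2% of all genes tested. Among the wild-type arrays, array 1 was the highest for 16 of the 29 genes, where it was the highest for 27.9% of all genes tested and for 16 of 48 genes of the wider astrocyte and Bergmann glia list described below. Among the knockout arrays, array 5 was the highest for 14 genes, array 4 for 11 and array 6 for 4, where the shares of all genes tested were 39.3%, 30.2% and 30.5%.

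The genes were sorted by the knockout array and the wild-type array on which they peaked, which places every gene in some set. Knockout array 4 and wild-type array 1 were each the highest of their genotype for 10 of the 29: Gdf10, Slc1a3, Hopx, Sept4, Gja1, Gjb6, Timp4, Glul, Vim and Ptprz1. Over all genes tested 15.4% had these arrays highest. Of the cell markers, 7 of 9 for granule cells, 6 of 9 for Purkinje cells, 3 of 5 for forebrain and 5 of 11 for myelinating oligodendrocytes were highest on these 2 arrays, as were 4 of 8 of the reactive astrocyte genes named A2. The counts were 2 of 11 for meninges and fibroblasts, 2 of 9 for shared reactive genes and 1 of 10 for endothelial cells and pericytes. Markers of oligodendrocyte precursors, microglia, choroid plexus, ependymal cells and red cells, and the A1 genes, had 0. In the wider astrocyte and Bergmann glia list 9 of 48 genes were, or 18.8%. Summed on the linear scale, granule cell markers read 43346 on knockout array 4, 33406 on knockout array 5 and 38187 on knockout array 6, against 43198, 38139 and 36915 on wild-type arrays 1, 2 and 3. Sox2, Slc7a10, Cst3, Apoe and Npy were highest on knockout array 5 and wild-type array 3, and Slc1a2, Aqp4, S100b, Sox9, Slc4a4 and Mlc1 on knockout array 5 and wild-type array 1. Shares of all genes tested with these peaks were not counted. Some peaks rested on small gaps, such as a wild-type range of 0.025 for S100b. These sets were read off after the values were seen, and the part that tissue composition or dissection has in them was not tested.

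**Figure D4:**
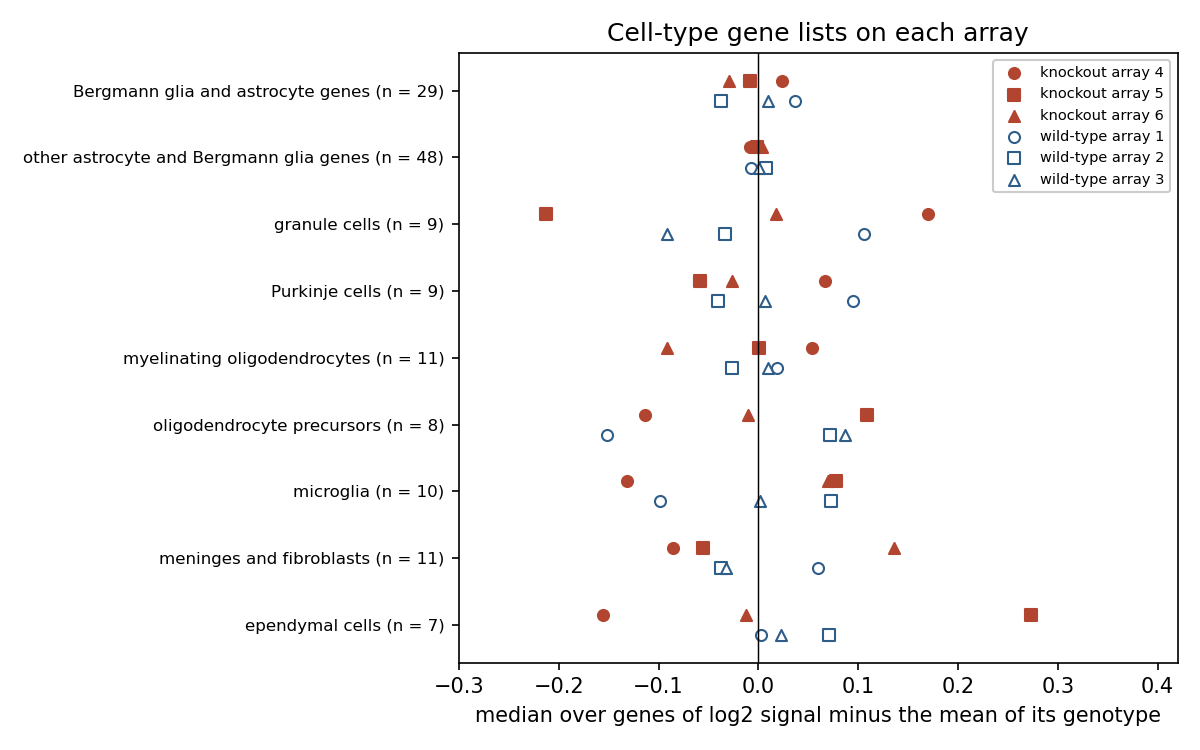
Median over the genes of each list of log2 signal minus the mean of its genotype, for each of the 3 knockout arrays (filled) and 3 wild-type arrays (open); n is the number of genes tested in each list. The Bergmann glia and astrocyte genes stay between -0.04 and 0.04, while granule cell markers run from -0.21 on knockout array 5 to 0.17 on knockout array 4.

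A wider list of 50 genes of the same cells was set beside the 29. Of these, 48 were tested and none passed (0 with an unadjusted limma p under 0.05), with higher values in 21, lower values in 27 and a median of -0.02. The largest values were those of A2m, a protease inhibitor of plasma and Bergmann glia, at 0.49 (SE 0.22; limma adjusted p = 0.584), and Entpd2, an enzyme that breaks down extracellular nucleotides, at 0.30 (SE 0.16; limma adjusted p = 0.609). A2m read 8.47, 8.32 and 8.66 in knockout, against 8.50, 7.89 and 7.58 in wild type, so that wild-type array 1 lay among the knockout arrays. Signal summed over the 48 genes was 107137 to 108393 on the knockout arrays and 107926 to 111282 on the wild-type arrays.

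Genes of reactive astrocytes did not pass either. Of the shared reactive genes 9 of 11 were tested, with 5 higher and 4 lower values and a median of 0.06. Serpina3n, a secreted protease inhibitor that astrocytes make after injury, read 6.86, 6.53 and 6.32 in knockout, against 6.27, 6.12 and 5.83 in wild type. Every knockout array of Serpina3n lay above every wild-type array, with a difference of 0.50 (SE 0.17; 95% interval 0.11 to 0.89; limma adjusted p = 0.553), and Aspg, an asparaginase, likewise had a difference of 0.28. In the other direction, and named after their values were seen, Cd44, a hyaluronan receptor, had -0.28 with overlapping arrays and Cp, ceruloplasmin, had -0.21 without overlap. Genes named A1 (8 of 12 tested; H2-D1, a class I histocompatibility gene, 0.33, and Fbln5, an elastic fibre protein, -0.19) had a median of 0.05. Genes named A2 (8 of 12 tested; Clcf1, a cytokine, 0.30, and Tm4sf1, a membrane protein, -0.21) had a median of -0.03. An unadjusted limma p under 0.05 was found for Serpina3n and H2-D1 in these lists, and for 8.57% of all genes tested. Knockout arrays lay wholly higher in 10.1% and wholly lower in 4.82% of all genes tested.

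Markers of other cells in the tissue were read in the same fit, and none passed. Myelinating oligodendrocyte markers had lower values in 9 of 11, a median of -0.16 and 5 genes with knockout arrays wholly lower (4.82% of all genes tested), led by Ermn (-0.30) and Mal (-0.29), both of the myelin sheath. Knockout array 6 was the lowest knockout array for 7 of these 11 genes, and without it the median was -0.12, with Ermn at -0.21 and Mal at -0.20. Their summed signal was 47580 to 51569 in knockout and 53104 to 54276 in wild type. Beside it stands the lower value of S100b, also made in the oligodendrocyte lineage, and the part of that lineage in it was not tested. Markers of oligodendrocyte precursors, which also make Ptprz1, had higher values in 5 and lower values in 3. Meningeal and fibroblast markers had lower values in 10 of 11, a median of -0.25 (Foxc2, a forkhead factor, -0.66, and Ogn, a proteoglycan, -0.56). Their knockout arrays lay wholly lower in 4 genes, and in 8 without knockout array 6 (4.82% and 6.47% of all genes tested). Red cell markers (4 tested, 3 with knockout arrays wholly lower, Alas2 -2.08, Slc4a1 -1.90) had a median of -1.25. Ependymal markers (7 tested, Tmem212 0.41, Dynlrb2 0.40) had one of 0.12. Medians were 0.04 for Purkinje cells (9 tested; Ebf2 0.52, Slc1a6 0.13), -0.05 for granule cells (9 tested; Grin2c 0.51, Fat2 0.35), 0.02 for oligodendrocyte precursors (8 tested; Bmp4 -0.38, Gpr17 -0.15) and 0.00087 for microglia (10 tested; Csf1r 0.22, Trem2 0.20). Endothelial and pericyte markers (10 tested; Kcnj8 0.33, Rgs5 -0.24) had a median of 0.07, and forebrain markers (5 tested; Tbr1 -0.48, Neurod6 0.16) one of 0.01. Choroid plexus markers (9 tested; Ttr -0.56, F5 -0.53) had a median of -0.08 and a summed signal of 4517 to 16034 in knockout and 12210 to 17674 in wild type. Without knockout array 6 none of these lists, the reactive lists or the wider list held a passing gene (2 of all 14067 passed). The medians then turned to 0.02 for the wider list (27 higher and 21 lower values) and to 0.01 for granule cells, and were 0.0025 for the shared reactive genes, 0.0048 for the A1 genes, 0.08 for Purkinje cells, 0.04 for endothelial cells and pericytes, 0.06 for forebrain, 0.02 for microglia and -0.35 for choroid plexus. Among the genes named, values without that array were 0.087 for Clcf1, 0.21 for Fat2, 0.11 for Csf1r, 0.084 for Trem2, 0.098 for Neurod6, -0.93 for Ttr and -0.85 for F5. Summed over the 29 Bergmann glia and astrocyte genes, signal was 110185 to 114031 in knockout and 112015 to 116778 in wild type.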

How the data were processed

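Brain RNA of 3 Gb5 knockout and 3 wild-type mice was measured on 6 single-colour arrays. The deposited table holds log2 signals, made with RMA and Partek (versions not given) per the submitters' processing notes; other steps were not given in the sources used here. RMA quantile-normalizes arrays, so a global change in RNA would not be seen. Groups come from the genotype in the labels. Of 45101 probes, 34945 have 1 gene, 932 several and 9160 none listed; 64 are controls. Symbols were updated through Entrez identifiers in RefSeq (GRCm38.p6; 34741 probes matched; Sept4 is Septin4 there). Each of 18193 genes was represented by its brightest probe, and 14067 above the 30th percentile of probe means (4.70) were tested with limma 3.58.1 in R 4.3.3 (eBayes with an intensity trend, two-sided, differences as knockout minus wild type, Benjamini-Hochberg over all, threshold 0.05). The number of arrays limits the precision. Exact permutation of 3 against 3 cannot give p below 0.1 and was not used. The fit was tested on simulated data in which 200 genes were changed. It recovered 3.6% of log2 changes of 0.25, 28.2% of those of 0.5 and 79.4% of those of 1. A failure to pass therefore does not show that a gene was unchanged. Detection calls and scan dates were not used here. Members and lists were chosen with earlier results of these data known. Named genes are the 29, Gnb5, and the 2 largest differences of each other list, since none held a passing gene; Eif2s3y and Gapdh were named after their values were seen. Lists and other probes without knockout array 6 were added after the data were seen. Alternatives covered filter, normalization, probe choice, variance model, array weights and each array left out. List medians carry no test.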

Additional observations from a re-analysis of the deposited data

How the results depend on the processing

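No paired analysis was possible because no array number is shared between the genotypes. None of the 29 genes and none of the 48 tested genes of the wider list passed under any of the 15 alternatives, and the lowest adjusted p of the 29 genes was 0.239 (Gja1 without knockout array 4). The median difference of the 29 lay between -0.06 and -0.01 with 1 array left out. The count of all genes passing, 5, was 8 with no filter, 3 with a filter at the 50th percentile, 10 when every probe was tested and 2 to 10 with 1 array left out (10 without wild-type array 1, 3 without wild-type array 2 or 3, 8 without knockout array 4 and 2 without knockout array 6); fewer or more features were tested in the first 3 of these, and the cause was not tested for the others. The sign held in 20 of the 29 genes under every alternative and turned in 9, all with a difference under 0.10 in size. A second quantile normalization gave 0.00083 for Slc1a3, 0.010 for Sept4 and 0.018 for Timp4. The mean of a gene's probes gave 0.10 for Slc1a3, 0.019 for Sept4, 0.045 for Timp4, 0.11 for Sox9 and -0.014 for Hopx. Array weights gave 0.0044 for Slc1a3, 0.034 for Sept4 and 0.036 for Timp4, and subtracting array medians, which took the median of all genes to 0.00047, gave -0.021 for Hopx. With 1 array left out, values ran from -0.077 to 0.017 for Slc1a3, from -0.18 to 0.28 for Gfap, from -0.073 to 0.056 for Sept4, from -0.046 to 0.069 for Timp4, from -0.13 to 0.12 for Hopx, from -0.15 to 0.035 for Sox9, from -0.10 to 0.010 for Slc4a4, from -0.17 to 0.032 for Mlc1 and from -0.020 to 0.13 for Clu. Without detection calls, how far a dim signal stands above background is unknown.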
